A study of Mus musculus with 6 samples.

Results

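The colony-stimulating factors and their receptors were measured in F4/80high and F4/80low tumor-associated macrophages (TAMs) from mouse melanoma. The 9 members were the rows whose gene name was *Csf1r*, *Csf1*, *Il34*, *Csf2*, *Csf2ra*, *Csf2rb*, *Csf2rb2*, *Csf3* or *Csf3r*, each found once among 23424 genes. They were picked by name and not by a measured value, though with earlier results of these data known. YUMM1.7, a mouse melanoma line, was injected intradermally in WT female C57Bl/6J mice that were 8 weeks old, and the mice received no treatment. At day 21 the tumors were digested, and live CD45+ CD11b+ cells were sorted by FACS into F4/80high and F4/80low TAMs. Poly-A RNA of 3 libraries of each subset was sequenced, with 1 library of each subset from each of 3 independent experiments on pooled tumors. The subsets were sorted apart by the level of F4/80 protein, and share tumor line, mouse strain, sex, age and day. Replicates of the same number form a pair.

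CSF1 and IL-34 are both ligands of CSF1R, a receptor tyrosine kinase that macrophages need to survive and divide. GM-CSF (*Csf2*) and G-CSF (*Csf3*) belong to another family, whose receptors have no kinase of their own and signal through JAK kinases and STAT factors. The GM-CSF receptor pairs a specific alpha chain (*Csf2ra*) with the common beta chain (*Csf2rb*), which the receptors of IL-3 and IL-5 also use. Mice carry a further copy of the beta chain gene, *Csf2rb2*, whose product serves the IL-3 receptor. G-CSF acts through CSF3R, best known from neutrophils and their precursors.

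The total count was 16045281 to 43604373 reads per library. Replicate 3 of both subsets is batch 2 of the study and the smallest pair of libraries, and 3 features took 17.1% and 16.1% of its counts, against 0.378% to 0.609% in batch 1. For 42.6% of the genes tested, the batches differed at an adjusted p under 0.05 in edgeR. *Adgre1*, which encodes F4/80, had a log2 fold change of 0.67 (SE 0.30, adjusted p = 0.664 in edgeR), and all 8 macrophage markers had counts in every library. The study's methods add a lineage-negative gate to the sort. Genes of neutrophils, eosinophils, monocytes and other cells had counts all the same, and are given beside the members. In bulk samples, fewer cells of a type and less RNA per cell cannot be told apart.

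*Csf2rb* and *Csf2rb2* are neighbors whose sequences are close enough for reads to be shared, so the stretches that tell them apart are shown first. Both lie on chromosome 15 of GRCm38, *Csf2rb* at chr15:78325752-78353847 on the plus strand and *Csf2rb2* at chr15:78282507-78305721 on the minus strand, with 20030 bases between them. Over 2631 aligned coding bases of their main GENCODE M21 transcripts, 95.2% were identical. The 120-base coding window with the most differences holds 22 of them, written in capitals, and is joined from 2 exons in each gene (chr15:78338898-78340471, plus strand, for *Csf2rb*, and chr15:78292838-78294433, minus strand, for *Csf2rb2*).
Csf2rb: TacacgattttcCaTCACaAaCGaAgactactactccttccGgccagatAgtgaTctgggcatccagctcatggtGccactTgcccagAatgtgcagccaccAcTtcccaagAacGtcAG
Csf2rb2: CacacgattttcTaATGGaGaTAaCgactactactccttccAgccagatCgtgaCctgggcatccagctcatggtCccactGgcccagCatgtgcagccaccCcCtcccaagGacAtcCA

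The longest coding run without a difference is 242 bases, in 1 exon of *Csf2rb* (chr15:78348577-78348818, plus strand) and of *Csf2rb2* (chr15:78284630-78284871, minus strand). It is shown because a read that falls inside it names neither gene.
Csf2rb and Csf2rb2: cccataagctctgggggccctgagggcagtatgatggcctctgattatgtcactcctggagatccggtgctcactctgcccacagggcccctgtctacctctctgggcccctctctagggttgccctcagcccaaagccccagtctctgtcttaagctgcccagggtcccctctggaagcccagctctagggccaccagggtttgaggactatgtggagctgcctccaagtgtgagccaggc

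Of the 75-base stretches of the *Csf2rb* transcript, 11.0% occur unchanged in a transcript of *Csf2rb2*, and 11.1% of those of *Csf2rb2* occur in *Csf2rb*. At 100 bases the shares were 7.16% and 7.2%. The read length and the treatment of reads that match both genes are not given in the sources used here, so the split of counts between the genes is uncertain.

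No member was called between the subsets. A call needed a Benjamini-Hochberg adjusted p under 0.05 over 14645 protein-coding genes and an absolute log2 fold change above 1 in edgeR's quasi-likelihood test with batch as a term, and 0 of 9 members met it, as did 0% of all genes. At an unadjusted p under 0.05, 1 member (*Csf2rb*) was lower in F4/80high TAMs and 0 were higher, against 4.32% and 3.28% of all genes. DESeq2 with the same terms also called 0 members and gave 2 with an unadjusted p under 0.05. On the log2 scale 6 members had a negative and 3 a positive fold change (F4/80high over F4/80low), with a median of -0.40 beside 0.01 over all genes. *Csf1*, *Il34*, *Csf2rb* and *Csf3r* were lower in F4/80high in 3 of 3 pairs, where 15.9% of all genes were, and 0 members were higher in 3 of 3 pairs, where 16% of all genes were. The F4/80high and F4/80low libraries overlapped in CPM (counts scaled to the library size after TMM normalization) for every member, while 5.2% of all genes had subsets that did not overlap. With the replicate pair as a block in place of batch, edgeR called 0 members and 0.519% of all genes, and 3 members (*Csf1*, *Csf2rb* and *Csf3r*) had an unadjusted p under 0.05. The share of all genes at an unadjusted p under 0.05 is not given for DESeq2 or for the block. Their counts of members at that p are thus no result about the members.

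**Figure D1:**
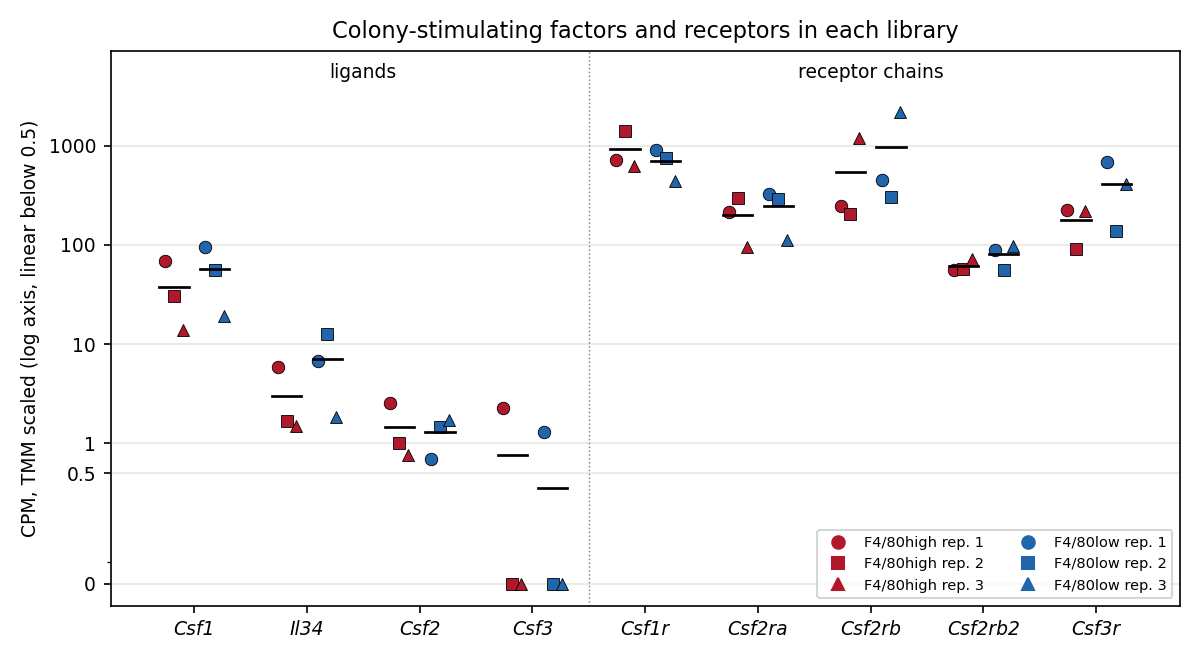
CPM (counts scaled to library size with TMM, log axis that turns linear below 0.5) of the 4 ligands and the 5 receptor chains in each of the 6 libraries, red for F4/80high and blue for F4/80low, with a marker shape per replicate and a bar at the mean of 3. The receptor chains lie between 55.5 and 2175 CPM, the ligands at or below 94.6 CPM, and the 2 subsets overlap for every gene.

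**Figure D2:**
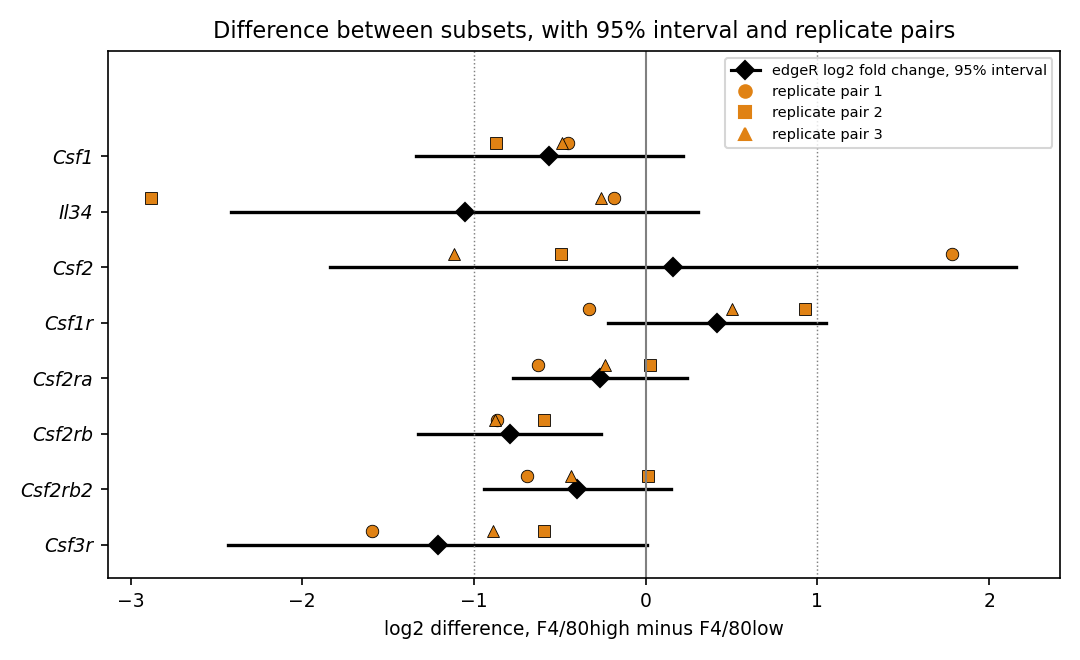
Log2 difference of F4/80high minus F4/80low for 8 members, with the edgeR estimate and its 95% interval in black and the difference within each replicate pair in orange. *Csf3*, with counts in replicate 1 alone, is left out, and the interval of *Csf2rb* (-1.32 to -0.26) is the one that does not reach 0.

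Among the ligands, *Csf1* was the highest by TPM (counts per base of gene length, scaled to the same sum in each library) in every library. *Csf1* encodes M-CSF, the main growth factor of macrophages, and lies at chr3:107741048-107760469 on the minus strand of GRCm38. Its CPM were 69.2, 30.5 and 13.7 for replicates 1, 2 and 3 of F4/80high TAMs, and for F4/80low 94.6, 55.8 and 19.3. The F4/80low library was the higher of each pair, but the spread between experiments was larger than the difference, and the subsets overlapped. The means were 37.8 ± 28.4 and 56.5 ± 37.7 CPM (SD, n = 3 each), with a log2 fold change of -0.56 (SE 0.34, adjusted p = 0.714 in edgeR). With the pairs as a block its unadjusted edgeR p was 0.0249 and its adjusted p 0.397. *Csf1* was also 0.266-fold as high in batch 2 as in batch 1 (adjusted p = 0.00442 in edgeR).

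*Il34* encodes the other CSF1R ligand, which the epidermis and brain supply to Langerhans cells and microglia, and lies at chr8:110741829-110805924 on the minus strand. It measured 5.88, 1.67 and 1.51 CPM in F4/80high and 6.70, 12.7 and 1.83 CPM in F4/80low replicates 1, 2 and 3. F4/80low replicate 2 stood above the other libraries, and pairs 1 and 3 differed by -0.19 and -0.26 on the log2 scale against -2.88 in pair 2. The log2 fold change was -1.06 (SE 0.60, adjusted p = 0.699 in edgeR). Leaving out either replicate 2 library moved it, to -0.62 for F4/80low and -0.59 for F4/80high, and dropping F4/80high replicate 1 gave -1.64. The antisense genes *Gm15894* and *Gm15895* overlap *Il34*, and whether the counts used strand is not given, so the reads cannot be parted from theirs. Compared within a library by TPM, *Csf1* was 1.63 to 6.77 times as high as *Il34*.

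All 6 fibroblast markers were lower in F4/80high, 1 of them at an unadjusted p under 0.05, with summed levels of 442 to 1537 CPM against 1027 to 1901 CPM, none at 0 in any library, and F4/80low was higher in 3 of 3 pairs. Fibroblasts are a known source of *Csf1* and *Il34*. Both subsets had their highest fibroblast sum in replicate 3, at 1537 and 1901 CPM with F4/80high named first, where *Csf1* and *Il34* were lowest. Of these sums *Col1a2* alone gave 1038 and 1300 CPM. Like *Col1a2*, *Col1a1* and *Pdgfra* were highest in replicate 3 of each subset, and *Dcn* was so in F4/80high only. *Col3a1* and *Pdgfrb* were lowest in replicate 3 of each subset, as the ligands were. The part of fibroblasts in the values of both ligands was not tested.

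*Csf2*, which encodes GM-CSF, had few reads. It lies at chr11:54247271-54249667 on the minus strand, where the antisense gene *Gm12223* overlaps it. Replicates 1, 2 and 3 held 102, 52 and 7 reads of it in F4/80high TAMs, against 28, 59 and 15 reads in F4/80low. The pairs went different ways. In pair 1 the CPM of F4/80high was 3.66 times that of F4/80low (95% counting interval 2.39 to 5.78), in pair 2 it was 0.696 times (0.470 to 1.03) and in pair 3 0.442 times (0.153 to 1.15). These intervals cover counting error alone. The log2 fold change over the 3 pairs was 0.16 (SE 0.89, adjusted p = 0.979 in edgeR), with means of 1.45 ± 0.985 and 1.29 ± 0.523 CPM (SD, n = 3 each), and turned to -0.51 when F4/80high replicate 1 was left out and to -0.31 when F4/80low replicate 1 was.

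T and NK cells are a known source of GM-CSF, and their markers were highest in the library where *Csf2* was highest. The summed T and NK markers were 1680, 475 and 275 CPM in the F4/80high libraries of replicates 1, 2 and 3 and 583, 772 and 133 CPM in F4/80low. All 7 tested markers of 8 had a positive log2 fold change, 1 of them at an unadjusted p under 0.05, and none of the 8 was at 0 in any library. In pairs 1 and 2 the library higher in *Csf2* was the one higher in these markers, and in pair 3 it was not. Their part in the *Csf2* counts was not tested.

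*Csf3*, which encodes G-CSF (chr11:98701263-98703629, plus strand), was detected in replicate 1 alone, with 90 counts in F4/80high and 52 in F4/80low. The ratio of CPM in that pair was 1.74 (95% counting interval 1.22 to 2.50). The other 4 libraries had 0 counts, which allows up to 3 counts, or 0.0688 to 0.187 CPM of the total. *Csf3* was thus found in both subsets of 1 experiment and in neither subset of the other two.

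**Figure D3:**
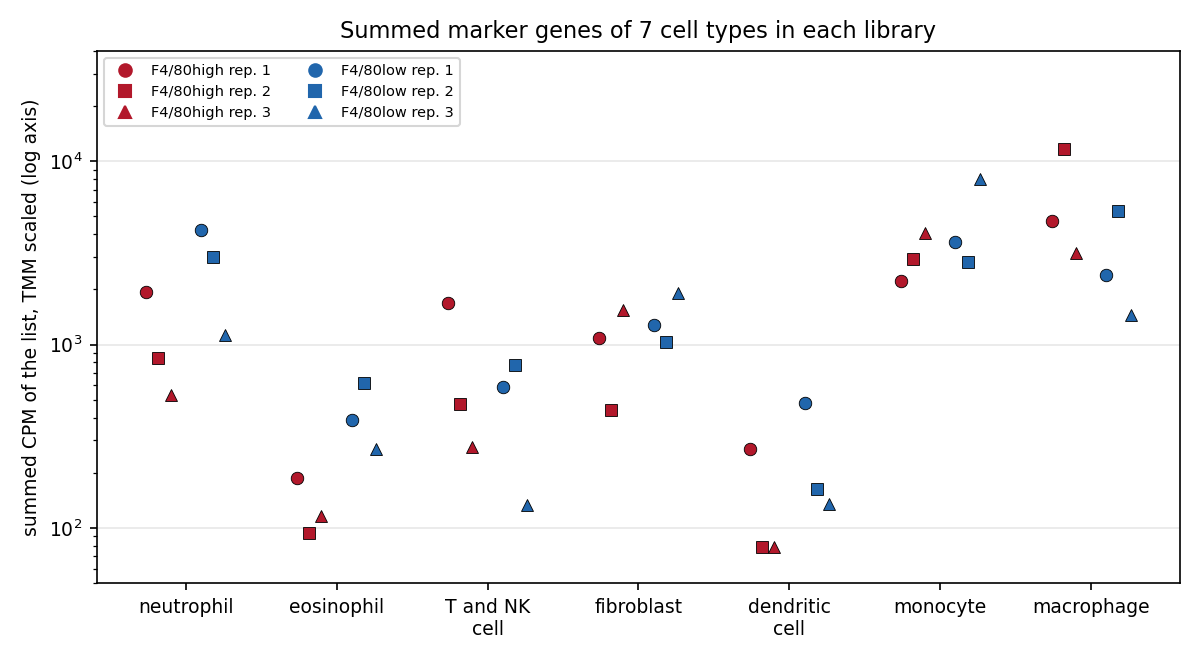
Summed CPM (TMM scaled, log axis) of the marker genes of 7 cell types in each library, colors and shapes as in the plot of the members. The neutrophil, eosinophil, fibroblast and dendritic cell sums are lower in F4/80high in each of 3 pairs, the macrophage sum is higher in each, and the T and NK sum is highest in F4/80high replicate 1 at 1680 CPM.

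*Csf1r* was among the 3 highest members by TPM in every library and the highest in F4/80high replicates 1 and 2. Its gene lies at chr18:61100598-61132149 on the plus strand, where it overlaps *Hmgxb3* on the other strand. It measured 720, 1413 and 618 CPM in the F4/80high libraries of replicates 1, 2 and 3 and 906, 741 and 437 CPM in F4/80low. F4/80high replicate 2 was the highest library and F4/80low replicate 3 the lowest, and in pair 1 the order was reversed, with the F4/80low library higher. The means were 917 ± 432 and 695 ± 238 CPM (SD, n = 3 each), and the log2 fold change was 0.42 (SE 0.28, 95% interval -0.22 to 1.05, adjusted p = 0.737 in edgeR). Without F4/80high replicate 2 it was 0.07, and without F4/80high replicate 1 it was 0.66. The receptor that defines the macrophage lineage thus differed between the subsets by less than the spread between libraries, and the interval leaves room for a log2 difference of up to 1.05.

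The receptor exceeded its ligand by TPM in all 6 libraries. Compared within a library by TPM, *Csf1r* was 11.2, 50.1 and 48.7 times as high as *Csf1* in the F4/80high libraries of replicates 1, 2 and 3, and 10.4, 14.4 and 24.5 times in F4/80low. The ratio was higher in F4/80high in each pair. TPM were used only within a library, since the same 3 features held 73.1% and 74.7% of all TPM in batch 2 and 3.80% to 5.68% in batch 1. The macrophage markers stood at 3139 to 11702 CPM in F4/80high and 1445 to 5333 CPM in F4/80low, higher in F4/80high in 3 of 3 pairs, and 6 of 8 had a positive log2 fold change, 4 of them at an unadjusted p under 0.05. Those 4 were *Mertk* and the complement genes *C1qa*, *C1qb* and *C1qc*. The complement genes made up most of the highest sum, with 2467, 3400 and 2977 CPM in F4/80high replicate 2. The sum without them was not taken, and the list includes *Adgre1*, the gene of the sort marker.

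*Csf2ra*, the chain that gives the GM-CSF receptor its specificity, lies at chr19:61223957-61228429 on the minus strand. It measured 213, 296 and 95.1 CPM in F4/80high and 328, 290 and 112 CPM in F4/80low replicates 1, 2 and 3. Both replicate 3 libraries were below the other 4, and pair 2 showed next to no difference (0.03 on the log2 scale). The log2 fold change was -0.27 (SE 0.22, 95% interval -0.77 to 0.24, adjusted p = 0.790 in edgeR). Leaving out F4/80high replicate 1 moved it to -0.14, and to -0.44 when F4/80high replicate 2 was dropped instead. The batch 2 level was 0.368-fold that of batch 1 (adjusted p = 0.0018 in edgeR).

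*Csf2rb*, the common beta chain, was the member with the smallest p. It measured 244, 203 and 1182 CPM in F4/80high and 445, 306 and 2175 CPM in F4/80low replicates 1, 2 and 3. F4/80low was the higher library of every pair by a similar margin, with log2 differences of -0.86, -0.59 and -0.88, and both replicate 3 libraries were far above the rest, so the subsets overlapped. Its log2 fold change was -0.79 (SE 0.24, 95% interval -1.32 to -0.26, edgeR unadjusted p = 0.00831, adjusted p = 0.504). Paired by experiment (replicate block), edgeR gave an adjusted p of 0.115, and DESeq2 gave 0.0715 with batch and 0.0107 with the block, with the fold change still under the threshold of 1. Leaving out any 1 library kept the log2 fold change between -0.94 and -0.64. Between the batches it differed far more than between the subsets, at 5.54-fold higher in batch 2 (adjusted p = 6.32e-05 in edgeR).

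The alpha and beta chains of the GM-CSF receptor thus differed in opposite directions between the batches. By TPM within a library, *Csf2rb* was 0.446, 0.266 and 4.82 times as high as *Csf2ra* in the F4/80high libraries of replicates 1, 2 and 3, and 0.526, 0.408 and 7.54 times in F4/80low. The beta chain was below the alpha chain in batch 1 and above it in batch 2, in both subsets. Within each pair the ratio was higher in F4/80low.

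*Csf2rb2* was lower than *Csf2rb* by TPM in every library. It measured 55.5, 56.8 and 72.0 CPM in F4/80high and 89.5, 56.3 and 97.5 CPM in F4/80low replicates 1, 2 and 3. The F4/80low library was higher in pairs 1 and 3, and pair 2 was level. The log2 fold change was -0.40 (SE 0.24, adjusted p = 0.713 in edgeR). Leaving out F4/80low replicate 1 moved it to -0.19, and to -0.57 when F4/80low replicate 2 was dropped instead. The batches did not part it as they did *Csf2rb*, at 1.31-fold in batch 2 over batch 1 (adjusted p = 0.252 in edgeR).

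**Figure D4:**
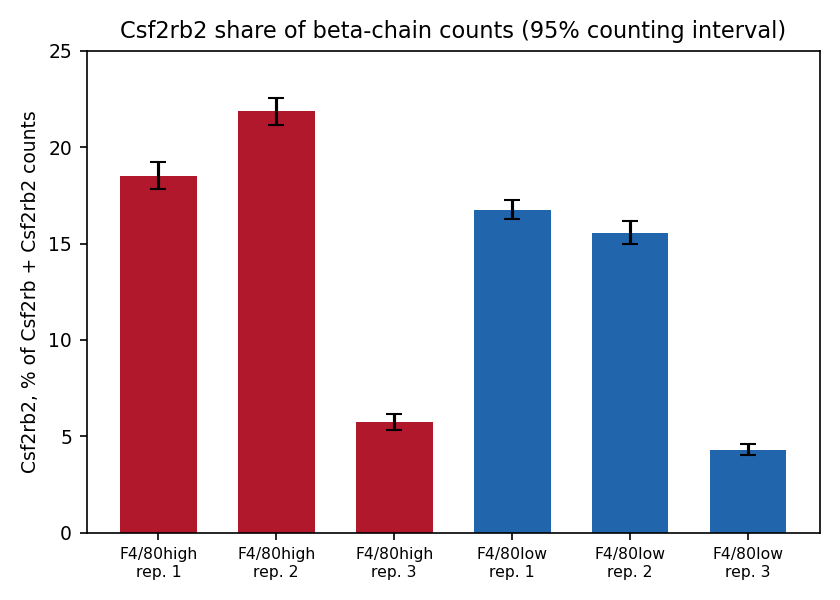
Counts of *Csf2rb2* as a percentage of the counts of *Csf2rb* and *Csf2rb2* together, 1 bar per library, with 95% Clopper-Pearson intervals that cover counting error alone. The bars stand at 15.6% to 21.9% in replicates 1 and 2 and at 4.29% and 5.74% in replicate 3.

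*Csf2rb2* took 18.5%, 21.9% and 5.74% of the counts of both beta chain genes in the F4/80high libraries of replicates 1, 2 and 3 and 16.8%, 15.6% and 4.29% in F4/80low. The share was higher in F4/80high in each pair, by 1.76, 6.30 and 1.45 percentage points. Its means were 15.4 ± 8.50% and 12.2 ± 6.88% (SD, n = 3 each), and the spread within a subset was mostly that between the batches. A two-sided exact permutation test of the 6 libraries, which takes no account of pair or batch, gave p = 0.5 (the smallest that 3 against 3 allow is 0.1). A two-sided exact permutation of the signs within the pairs, added after the data were seen, gave p = 0.25, the smallest that 3 pairs allow, so neither design could pass 0.05. The *Csf2rb* count was 3.58 to 5.43 times that of *Csf2rb2* in batch 1 and 16.4 and 22.3 times in batch 2. The 95.2% identity of the coding sequences printed above bears on this share. How shared reads were counted, and whether both batches were counted alike, is not given in the sources used here.

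*Csf3r* had the most negative log2 fold change of the members with counts in every library. The gene, at chr4:126024550-126044440 on the plus strand, measured 225, 90.8 and 219 CPM in F4/80high and 682, 137 and 406 CPM in F4/80low replicates 1, 2 and 3. F4/80low was higher in every pair, but F4/80low replicate 2 lay below F4/80high replicates 1 and 3. The means were 179 ± 76.1 and 409 ± 272 CPM (SD, n = 3 each), with a log2 fold change of -1.21 (SE 0.54, 95% interval -2.44 to 0.01, adjusted p = 0.664 in edgeR). DESeq2 with the pairs as a block called it, at -1.02 (SE 0.25, adjusted p = 0.00285), while edgeR with the block gave an adjusted p of 0.115. Without F4/80low replicate 1 the log2 fold change was -0.28.

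Markers of granulocytes were lower in F4/80high, as *Csf3r* and *Csf2rb* were. All 11 neutrophil markers had a negative log2 fold change, 8 of them at an unadjusted p under 0.05, with summed levels of 1924, 844 and 533 CPM in F4/80high and 4230, 3002 and 1128 CPM in F4/80low replicates 1, 2 and 3. F4/80low replicate 1 had both the highest neutrophil sum and the highest *Csf3r*, but the other libraries did not keep this order. F4/80low replicate 2, with the second highest sum, had less *Csf3r* than every library but F4/80high replicate 2, and *Csf2rb* was highest in the replicate 3 libraries, where the neutrophil sums were the lowest of each subset. *Mpo* was at 0 in F4/80high replicates 2 and 3 and F4/80low replicate 3, and *Elane* in both replicate 3 libraries, while *S100a8* reached 723 CPM and *Ly6g* 8.89 CPM. All 8 eosinophil markers were also lower in F4/80high, 6 of them at an unadjusted p under 0.05, with sums of 93.8 to 187 CPM against 271 to 621 CPM, which did not overlap. *Epx*, a granule protein gene of eosinophils, was at 0 in F4/80high replicate 1. All 7 mast cell and basophil markers had a negative log2 fold change as well, 1 of them at an unadjusted p under 0.05, with sums of 59.9, 6.37 and 106 CPM in F4/80high and 87.3, 34.2 and 419 CPM in F4/80low replicates 1, 2 and 3. These sums were lower in F4/80high in 3 of 3 pairs and, like *Csf2rb*, highest in replicate 3 and lowest in replicate 2 of each subset. The replicate 3 peak came from *Kit*, with 91.3 of the 106 CPM of F4/80high replicate 3 and 384 of the 419 CPM of F4/80low replicate 3. No other marker of this list was highest in replicate 3 of both subsets. *Cpa3*, *Fcer1a* and *Mcpt4* were highest in replicate 1 of each subset. *Mcpt8*, a basophil protease gene, and *Ms4a2*, the beta chain of the IgE receptor, were each at 0 in 3 libraries, both in F4/80high replicates 2 and 3. Monocyte markers were lower in 6 of 7 genes, 5 of them at an unadjusted p under 0.05, with sums of 2227 to 4081 CPM against 2810 to 7961 CPM. In pair 2 the monocyte sum was higher in F4/80high, at 2932 CPM against 2810 CPM. Dendritic cell markers were lower in 6 of 7, 1 at an unadjusted p under 0.05, with sums of 78.7 to 271 CPM against 135 to 482 CPM. The part of these cells in the values of *Csf3r*, *Csf2rb* and *Csf2rb2* was not tested.

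Sequence before the RefSeq start of transcription was at hand for 5 of the 9 members, in RefSeq promoter windows of GRCm38.p6. The 250 bases upstream were searched on both strands for GAGGAA, a core of the sites bound by PU.1 (*Spi1*), the myeloid factor that acts on many of these receptor genes. The windows of *Csf2ra*, *Csf2rb2* and *Csf3r* held a match and those of *Csf1* and *Csf2* held none, and 23.3% of 32851 windows of that length hold one. The 30 bases around the matches, which are in capitals, are shown on the strand of the gene.
Csf2ra: ttcccaacctgcagatGAGGAAGAGGAAgc
Csf2rb2: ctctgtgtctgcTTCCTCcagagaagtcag
Csf3r: cctccttcctgaGAGGAAggggctgtctat

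The *Csf2ra* bases lie at chr19:61228419-61228448 on the minus strand, with adjoining matches at -14 and -8 from the RefSeq start. The gene as GENCODE M21 draws it starts earlier, so that the first match spans its start and the second lies inside it. Those of *Csf2rb2* lie at chr15:78305871-78305900 on the minus strand, with TTCCTC, the match on the other strand, at -167. The *Csf3r* bases lie at chr4:126024561-126024590 on the plus strand, with a match at -86 from the RefSeq start, a place that GENCODE M21 annotates as 5′ UTR because its transcript starts earlier. *Spi1* itself had a log2 fold change of -0.32 (SE 0.21, adjusted p = 0.725 in edgeR).

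The genes around the receptors were read from 7 lists, in which 70 genes were tested. None of them was called by edgeR with batch. Of 25 genes of CSF1R proximal signaling, 9 had a positive and 16 a negative log2 fold change, with a median of -0.07, and 0 were higher and 3 lower at an unadjusted p under 0.05. The 3 lower genes included *Fgr*, a tyrosine kinase of myeloid cells, and the phospholipase *Plcg2*. *Fgr* measured 154, 116 and 91.3 CPM in F4/80high and 330.5, 212 and 232 CPM in F4/80low replicates 1, 2 and 3, so that its subsets did not overlap. Its log2 fold change was -1.12 (SE 0.26, adjusted p = 0.440 in edgeR, DESeq2 adjusted p = 0.0108). *Plcg2* stood at -0.65 (SE 0.26, adjusted p = 0.623 in edgeR). *Tyrobp*, the adaptor that couples CSF1R to Syk, stood at -0.29 (SE 0.21, adjusted p = 0.746 in edgeR).

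Of 8 regulators of *Csf1r* transcription, 4 had a positive and 4 a negative log2 fold change. Both C/EBP factors of the list passed an unadjusted p of 0.05 and went opposite ways. *Cebpa*, a factor of early myeloid commitment, measured 48.1, 78.8 and 213 CPM in F4/80high and 29.7, 27.3 and 98.8 CPM in F4/80low replicates 1, 2 and 3. F4/80high was higher in each pair, at a log2 fold change of 1.14 (SE 0.25, adjusted p = 0.440 in edgeR, DESeq2 adjusted p = 0.0101). *Cebpb*, a factor of inflammatory and emergency myelopoiesis, measured 841, 569 and 427 CPM in F4/80high and 1474, 1133 and 717 CPM in F4/80low. F4/80low was higher in each pair, at -0.84 (SE 0.24, adjusted p = 0.504 in edgeR).

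Of 12 growth genes that CSF1 induces, 8 had a positive and 4 a negative log2 fold change, with a median of 0.19. The ETS factor *Etv5* was the 1 gene higher at an unadjusted p under 0.05 (log2 fold change 1.01, SE 0.38, adjusted p = 0.596 in edgeR), and the D-type cyclin *Ccnd3* the 1 gene lower (-0.68, SE 0.27, adjusted p = 0.621 in edgeR). Of the other receptors of IL-34, *Sdc1* (syndecan-1) measured 32.6, 20.01 and 26.1 CPM in F4/80high and 62.4, 50.8 and 31.8 CPM in F4/80low, with a log2 fold change of -0.84 (SE 0.29, adjusted p = 0.545 in edgeR). No gene named *Ptprz1* was among the 23424 genes.

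On the side of the beta chain, *Il5ra*, the alpha chain of the IL-5 receptor, had a log2 fold change of -1.30 (SE 0.41, adjusted p = 0.524 in edgeR) and is itself one of the eosinophil markers above. *Il3ra* stood at 0.08 (SE 0.32, adjusted p = 0.964 in edgeR). Of 12 genes of JAK2-STAT5 signaling, 2 had a positive and 10 a negative log2 fold change, with a median of -0.41, and 0 were higher and 3 lower at an unadjusted p under 0.05. *Jak2*, the kinase bound to the beta chain, measured 99.6, 65.2 and 210 CPM in F4/80high and 234, 106 and 453 CPM in F4/80low replicates 1, 2 and 3. The F4/80low library was higher in each pair, at a log2 fold change of -1.07 (SE 0.32, adjusted p = 0.504 in edgeR). The STAT5 targets *Osm* (-0.73, SE 0.21, adjusted p = 0.504 in edgeR) and *Pim1* (-0.77, SE 0.33, adjusted p = 0.647 in edgeR) were the others.

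Of 10 genes that GM-CSF induces, 1 had a positive and 9 a negative log2 fold change, with a median of -0.58. *Itgax* (CD11c; -0.62, SE 0.24, adjusted p = 0.607 in edgeR) and the tetraspanin *Cd9* (-0.54, SE 0.24, adjusted p = 0.654 in edgeR) were lower at an unadjusted p under 0.05 and in 3 of 3 pairs. *Car4* was lower at an unadjusted p under 0.05 as well, but not in pair 3. The gene with the positive value was *Pparg* (0.94, SE 0.56, adjusted p = 0.710 in edgeR), the GM-CSF-dependent factor of alveolar macrophages. With the pairs as a block, edgeR called the chemokine *Ccl22* (log2 fold change -1.56, SE 0.24, adjusted p = 0.0348). The dendritic cell and neutrophil markers had median log2 fold changes of -0.76 and -1.11, and 6 of 7 monocyte markers were lower in F4/80high as well. Dendritic cells also express *Itgax* and *Ccl22*. The part of these cells in the values of the GM-CSF-induced and JAK2-STAT5 genes was not tested.

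**Figure D5:**
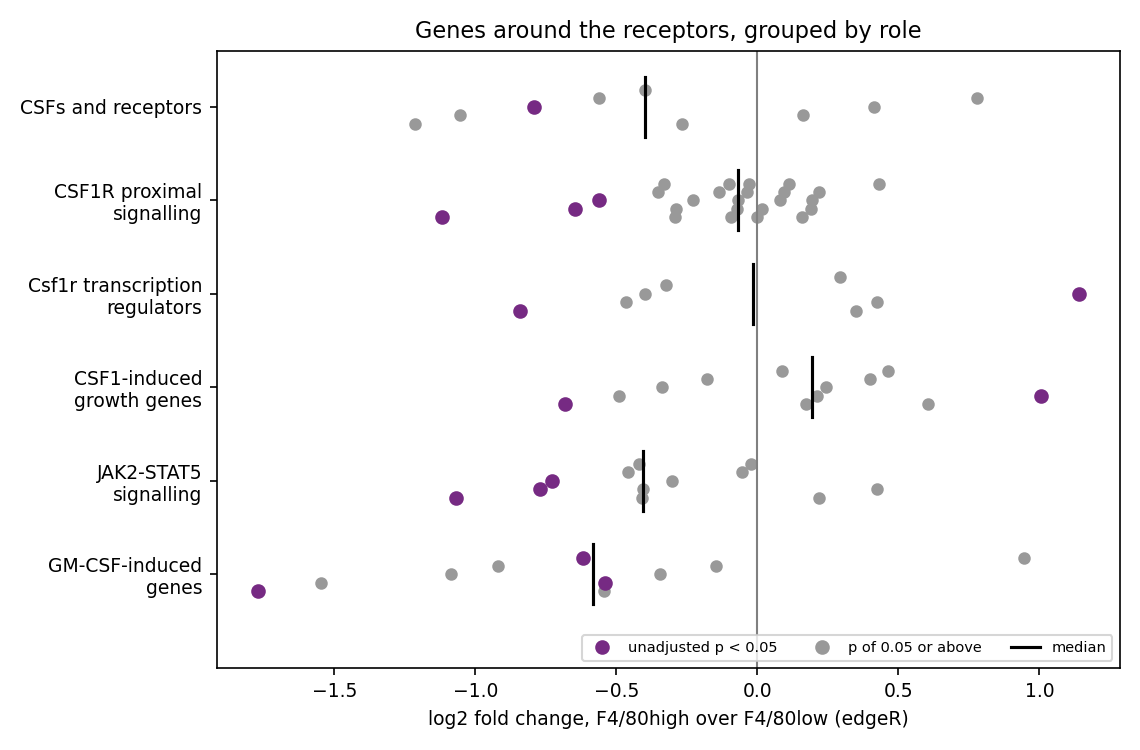
Log2 fold change (F4/80high over F4/80low, edgeR with batch) of each tested gene of the colony-stimulating factors and receptors and of 5 lists around them, 1 point per gene, purple at an unadjusted p under 0.05, with a bar at the median. The medians of the JAK2-STAT5 and GM-CSF-induced genes are -0.41 and -0.58, and that of the CSF1-induced genes is 0.19.

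The genes whose pattern over the 6 libraries was most like that of a member were taken by Pearson correlation of log2 CPM with the batch mean removed, among 10071 genes. With 6 libraries and so many genes, values near 1 arise for any gene, and the libraries share depth and batch, so these are descriptions. *Csf1r* was most like *Qk* (r = 1.00), *Mysm1* (0.997) and *Mkl2* (0.996). *Csf1* was most like *Slfn1* (0.998), *Kbtbd7* (0.998) and *Ifitm1* (0.998), and *Csf2rb* like *Ahr* (0.999), *Zfp949* (0.998) and *Ptpn1* (0.997). *Csf3r* was most like *Rbm6* (0.998), *Stat3* (0.998) and *Spata13* (0.998). With the batch left in, the correlations of these 12 genes ran from -0.794 (*Zfp949*) to 0.998 (*Stat3*), those of *Qk*, *Mysm1* and *Mkl2* with *Csf1r* were -0.437, -0.674 and -0.516, and that of *Kbtbd7* with *Csf1* was 0.150.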

How the data were processed

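Bulk RNA-seq of sorted TAMs was analysed in 3 F4/80high and 3 F4/80low libraries, grouped by their titles. The authors deposited raw read counts per gene with no normalization, along with gene lengths. The aligner, counting rule and use of strand are not given in the sources used here. GENCODE M21 (GRCm38), which held 99.4% of the gene IDs, gave biotype and position. Genes that are protein-coding there and had a summed count of at least 10 were kept, and edgeR 4.0.16 (R 4.3.3) fitted TMM-scaled counts with terms for batch and subset. The study used that filter, a batch correction and the same thresholds in DESeq2. Batches were read from a supplementary plot of the study. The members and gene lists were chosen with earlier results of these data known, so nothing here is independent support for them.

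Libraries of the same number come from the same experiment and were taken as pairs. After removal of the subset means they correlated at 0.745, 0.729 and 0.907 over 10072 genes. The batch difference was left in, so these values cannot tell a shared experiment from a shared batch. The p-values measure the spread between these 6 libraries. No library was a copy of another. The fits were also run on simulated counts, which held no batch or experiment effect and so do not test how the fits handle these. Coding sequences were aligned with Biopython 1.88. The genes named are the members, *Adgre1*, up to 3 genes a direction of each list with an unadjusted p under 0.05 and 1 direction in all 3 pairs, the 3 genes most correlated with *Csf1r*, *Csf1*, *Csf2rb* and *Csf3r*, up to 2 genes of a marker list, and, chosen after their values were seen, *Spi1*, *Tyrobp*, *Il3ra*, *Pparg*, *Car4*, *Ccl22*, *Il1r2* and marker genes at 0. A gene that this rule names is not reported here. The ratios of TPM between members were also added after the data were seen. Alternatives were DESeq2 1.42.0, its size factors, scaling by library size, leaving out the batch term, the replicate pair as a block, other filters and gene sets, the adjusted p alone, and leaving out each library or replicate 3 of both subsets.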

Additional observations from a re-analysis of the deposited data

How the results depend on the processing

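The count of genes called depended on the tool and the pairing. Against 0 genes in edgeR with batch, 148 were called by DESeq2 with batch, 76 with the replicate pair as a block in edgeR, 354 with that block in DESeq2, and 0 to 57 when 1 library was left out, the 57 without F4/80high replicate 1. Of the members, 1 (*Csf3r*) was called by DESeq2 with the block and 0 under every other alternative, leaving out 1 library included. Of the pathway genes, DESeq2 with batch called 2 (*Fgr* and *Cebpa*), edgeR with the block 1 (*Ccl22*) and DESeq2 with the block 5 (*Fgr*, *Cebpa*, *Jak2*, *Ccl22* and *Il1r2*). The block changed no other call among the members. *Csf1r*, *Csf1*, *Il34*, *Csf2ra*, *Csf2rb*, *Csf2rb2* and *Csf3r* kept the sign of their log2 fold change in 17 of 17 alternatives. *Csf2* ran from -0.51 to 0.73 when 1 library was left out, negative without F4/80high replicate 1 (-0.51) or F4/80low replicate 1 (-0.31). *Csf3*, with counts in 1 pair alone, ran from -6.98 to 7.71, -6.98 without F4/80high replicate 1, and it was -0.20 with F4/80low replicate 2 left out, values that depend on the prior count and are no bound. The difference in the *Csf2rb2* share of beta chain counts (3.17 percentage points) ran from -0.79 to 7.98 when 1 library was left out. It reversed, to -0.0747 when F4/80high replicate 2 was left out and to -0.786 for F4/80low replicate 3, each of which leaves the batches in unequal proportion between the subsets. The cause of the other differences was not tested. Depth limits *Csf2* and *Csf3* most, at 0 to 102 counts a library. Among the ligands, *Csf1* stood at -0.97 without F4/80high replicate 1 and at -0.30 with F4/80low replicate 1 or F4/80high replicate 2 left out.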

Other observations

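*Csf1r* belongs to the class III receptor tyrosine kinases, and the other 4 members of that class were chosen after their values were seen. *Flt3*, the receptor of a growth factor of dendritic cells and their precursors, measured 11.96, 4.43 and 2.81 CPM in the F4/80high libraries of replicates 1, 2 and 3 and 26.4, 9.81 and 14.7 CPM in F4/80low, and was lower in F4/80high in 3 of 3 pairs (log2 fold change -1.52, SE 0.53, adjusted p = 0.554 in edgeR). *Kit*, the stem cell factor receptor, which mast cells keep, ranged more widely than *Csf1r*, at 12.7, 0.330 and 91.3 CPM in F4/80high and 29.3, 6.98 and 384 CPM in F4/80low. It was likewise lower in 3 of 3 pairs (-1.68, SE 0.93, adjusted p = 0.698 in edgeR). The platelet-derived growth factor receptors *Pdgfra* (-0.78, SE 0.32, adjusted p = 0.630 in edgeR) and *Pdgfrb* (-0.40, SE 0.38, adjusted p = 0.818 in edgeR), which mark fibroblasts and pericytes, had 12.8 to 98.8 CPM over the 6 libraries. None of the 4 passed the threshold.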
